A study of Mus musculus with 3 samples.

Results

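Heat shock chaperones and their co-chaperones were described across thymocyte stages and p53 genotypes. The group holds 10 genes, found by symbol among 32285 genes counted, of which 23442 had at least 1 unique molecular identifier (UMI, a tag that marks 1 captured RNA molecule) in the cells used: Hsph1, Hspa1a, Hspa1b, Hspa8, Hsp90aa1, Hsp90ab1, Hspd1, Hspe1, Dnaja1 and Dnajb1. They were selected on a measured value of these data, the high level of Hsph1 in the p53 AD/- library. Ratios of that library to p53+/- are therefore given as description, and ratios to p53-/- share the same p53 AD/- cells. Cells were kept with at least 500 genes and under 10% mitochondrial UMIs.

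The study compared cell populations of the thymus between mice with germline changes of p53, a transcription factor that the Trp53 gene encodes. Single-cell libraries were made from female mice of 4 weeks, 1 for each of the genotypes p53+/-, p53 AD/- and p53-/-. What the AD allele carries is not stated in the labels, the title of the series speaks of p53 dimers, and the number of mice behind a library is not given in the labels. All groups were labelled as a mix of 50% BALB/C and 50% of a C57 strain, written C57BL6, C57BL7 and C57BL8 in that order. The design text calls the first group WT, whereas its genotype label carries 1 deleted allele, so every group had at least 1 altered p53 allele and no wild-type library was analysed here. With 1 library per genotype there is no replicate, no test was possible, and the 95% intervals below are exact and cover no more than counting error.

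Heat shock proteins help other proteins to fold, to assemble and to avoid clumping. Members of the HSP70 family bind short exposed stretches of a client protein with the help of J-domain partners and of factors that exchange their nucleotide, HSP90 proteins act later on clients such as kinases and steroid receptors, and the HSP60 chaperonin encloses proteins inside mitochondria. Many of these genes are induced by heat shock factor 1 through repeated GAA and TTC units, while others are made at all times, and developing T cells pass through a burst of division that calls for much new protein.

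Hsph1 (chromosome 5) encodes HSP110, which exchanges the nucleotide of HSP70. Hspa8 (chromosome 9) encodes the HSP70 protein made at all times, and Hspa1a and Hspa1b (both chromosome 17) encode the HSP70 proteins made on stress. Dnaja1 (chromosome 4) and Dnajb1 (chromosome 8) encode J-domain partners. Hsp90aa1 (chromosome 12) and Hsp90ab1 (chromosome 17) encode the cytosolic HSP90 proteins, of which the second is made at all times. Hspd1 and Hspe1 (both chromosome 1) encode mitochondrial HSP60 and its lid, and their annotated ends overlap head to head on opposite strands (GENCODE M21, GRCm38: Hspd1 at chr1:55077835-55088243, Hspe1 at chr1:55088132-55091307). The labels do not say whether reads were counted by strand, so it is not known here whether UMIs of this overlap were told apart. Hspa8 overlaps 3 small nucleolar RNA genes of its own strand, and Hspd1, Hspe1 and Dnaja1 have 5, 6 and 1 pseudogenes named after them, so their counts may be shared with these copies.

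Windows of 30 bases around the heat shock units are shown because the expression data did not enter their choice and the units were found in 6 of the 10 genes. RefSeq promoters (GRCm38.p6, 250 bases before to 50 after a start) matched 7 of the 10 genes, and Hspa8, Hsp90aa1 and Hsp90ab1 had no entry. A pair of facing units, GAANNTTC or TTCNNGAA on either strand, was found in 6 of these 7 genes and in 15.1% of all 32851 promoters. Here 3 units in a row, each 2 bases from the next, were found in Hsph1, Hspd1 and Hspe1, and in 0.603% of all promoters, and the Dnajb1 windows held none of these. The 7 genes had 12 promoter entries, and a gene was counted when any of its entries held the units. The shares over all promoters count each entry by itself, so they are not in the same unit. Capitals mark the units. The window between Hspd1 and Hspe1 (chr1:55088053-55088082) holds 4 units, overlaps an annotated Hspd1 exon and is the same DNA read on the minus and the plus strand. Hsph1 had a pair at chr5:149636351-149636380 and 3 units at chr5:149636287-149636316, both on the minus strand and both overlapping an annotated Hsph1 exon. The Hsph1 pair lay before the RefSeq start and the 3 units after it. Dnaja1 had a pair at chr4:40722333-40722362 (plus strand), overlapping annotated exons of Dnaja1 and Gm6297. Hspa1a (chr17:34972242-34972271) and Hspa1b (chr17:34959324-34959353), both on the minus strand, had the same window, which overlapped no annotated exon.
Hspd1: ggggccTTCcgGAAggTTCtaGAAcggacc
Hspe1: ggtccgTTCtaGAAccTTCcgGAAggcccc
Hsph1, 3 units: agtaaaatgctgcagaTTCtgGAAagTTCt
Hsph1, pair: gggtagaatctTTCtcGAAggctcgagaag
Dnaja1: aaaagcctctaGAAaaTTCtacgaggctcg
Hspa1a and Hspa1b: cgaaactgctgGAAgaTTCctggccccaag

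The libraries held 8880, 6308 and 9889 barcodes in p53+/-, p53 AD/- and p53-/-, with 46498800, 27638820 and 54164425 UMIs, and 8150, 6171 and 9543 cells were kept. Cells were clustered without the chaperone genes, and clusters were named from marker genes as DN-like (CD4- CD8- cells led by Il2ra), cycling-like (Top2a, Mki67), quiescent DP-like (CD4+ CD8+ cells led by Rag1 and Cd8b1), selected DP and early SP-like (CD4+ CD8+ cells after receptor signals and early single-positive cells; Cd69, Cd5, Itm2a) and mature SP-like (single-positive cells; Ms4a4b, Cd52, H2-K1). Of the 5 stages the DN-like class was the smallest (93, 53 and 146 cells). The quiescent DP-like class was the largest (4429, 3325 and 4449 cells). It is made of 4 clusters that the libraries filled unevenly: cluster 0 held 73.8% of its p53 AD/- cells, cluster 1 held 46.9% of its p53+/- cells and cluster 2 held 68.8% of its p53-/- cells. Medians in this class differed between libraries, with 2718, 1975 and 2254 UMIs per cell, 6.08%, 3.73% and 7.41% of UMIs from the nuclear RNA Malat1, and 4.3%, 3.5% and 3.9% from mitochondrial genes, and their part in the results was not tested. Summed markers of other cell types were low there and differed between libraries: the 6 erythroid markers reached 437, 13.6 and 105 CPM (UMIs of a gene per 1000000 UMIs of the class), the 8 granulocyte markers 36.9, 5.17 and 49.5, and the 10 dendritic cell markers 73.2, 101 and 96.8. Pairs of libraries shared 15 to 29 barcodes, at most 0.333% of the smaller library. Trp53 itself was counted in each library, at 57.5, 71.0 and 44.1 CPM, and since the labels do not give the extent of the deletion, this does not check the labels.

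Most of the chaperones were lowest in quiescent DP-like cells and higher at every other stage, in all 3 libraries, while Dnajb1 ran the other way. A gene was counted as different when it was at least 1.5-fold apart with at least 100 UMIs over the 2 sums compared, a minimum that Hspa1a and Hspa1b did not reach at any of the 5 stages. In cycling-like cells 6 of the 8 measured genes (Hsph1, Hspa8, Hsp90aa1, Hsp90ab1, Hspd1 and Hspe1) were at least 1.5-fold above the quiescent level in each library, beside 14.6% of all genes measured. The same 6 genes were higher in DN-like cells, beside 10.8% of genes. In selected DP and early SP-like cells 6 of 8 were higher beside 7.06% of genes, with Dnaja1 in place of Hsp90aa1. Dnaja1 was a borderline member of this count, as its p53-/- ratio lay almost exactly at the 1.5-fold limit. The intervals of its log2 ratio in p53+/- (0.57 to 0.67) and p53-/- (0.53 to 0.64) held that limit. Hsp90aa1 stayed below the limit in p53-/- (log2 ratio 0.42, 0.35 to 0.49). In mature SP-like cells 5 of 8 (Hsph1, Hspa8, Hsp90ab1, Hspd1 and Hspe1) were higher beside 9.48%. Dnajb1 was at least 1.5-fold lower in all 3 libraries in DN-like and in mature SP-like cells, where 28.9% and 27.9% of genes were lower.

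**Figure D1:**
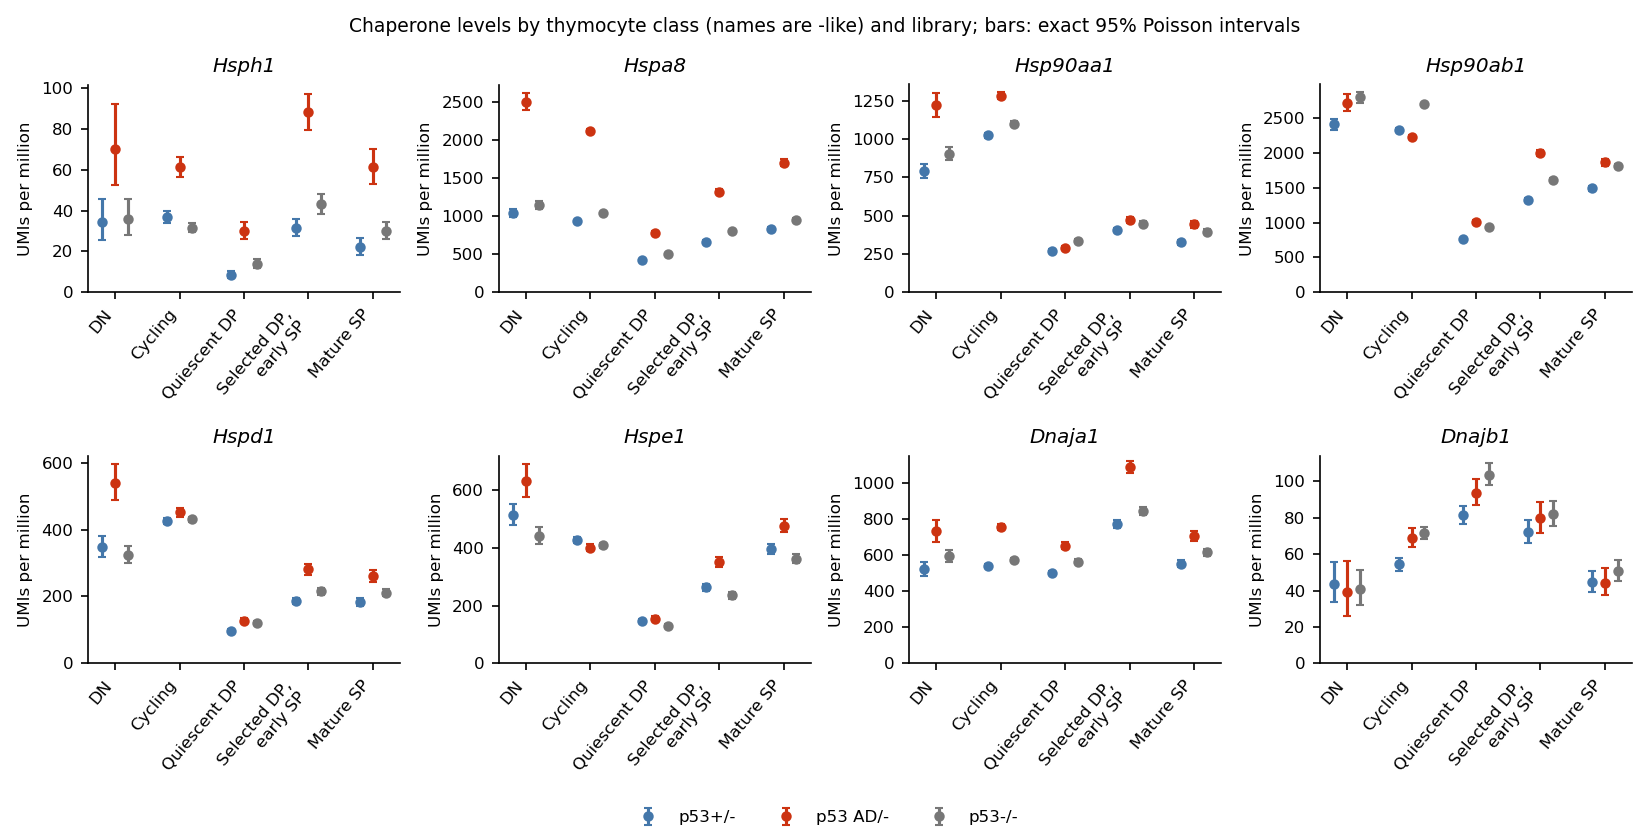
Level of the 8 measured chaperone genes (vertical axis, CPM of the UMIs of the class, with an axis of its own for each gene) in 5 thymocyte classes (horizontal axis) and 3 libraries (colours); points are summed levels and bars exact 95% Poisson intervals. Hsph1 and Hspa8 sit highest in p53 AD/- at every stage, and Dnajb1 is highest in quiescent DP-like cells, at 81.5, 93.8 and 104 CPM.

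Hsph1, the HSP110 gene, was counted at 8.50 CPM in quiescent DP-like cells of p53+/- (110 UMIs), 30.04 in p53 AD/- (215 UMIs) and 14.0 in p53-/- (154 UMIs). That of p53 AD/- was thus the highest, and its interval (26.2 to 34.3) did not meet those of the other libraries (6.98 to 10.2 and 11.8 to 16.3). As a fold the p53 AD/- level was 3.53 times that of p53+/- (log2 ratio 1.82, interval 1.48 to 2.17) and 2.15 times that of p53-/- (1.11, 0.80 to 1.41), and p53-/- was 1.64 times p53+/- (0.72, 0.35 to 1.08). In DN-like cells Hsph1 had 34.6, 70.3 and 36.0 CPM in p53+/-, p53 AD/- and p53-/-, in cycling-like cells 36.8, 61.3 and 31.5, in selected DP and early SP-like cells 31.4, 88.1 and 43.1, and in mature SP-like cells 22.1, 61.3 and 29.9. At each of these stages p53 AD/- was the highest. The order of the other libraries was not fixed: p53-/- was above p53+/- in selected DP and early SP-like cells (log2 ratio 0.46, 0.20 to 0.71) and below it in cycling-like cells (-0.22, -0.38 to -0.07), and in DN-like cells the interval of that ratio (-0.49 to 0.62) held 0.

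Among clusters of at least 50 cells in a library, Hsph1 was highest in cluster 9 of each library, led by Nr4a1, Bcl2l11 and Cd69, genes that respond to strong receptor signals, at 76.6, 145 and 75.4 CPM. Of the 9 clusters with at least 100 Hsph1 UMIs over the pair, 9 were at least 1.5-fold higher in p53 AD/- than in p53+/-, and 10 of 10 were in the comparison with p53-/-. Hsph1 was chosen for being high in p53 AD/-, and its UMIs in that library count towards the minimum. These counts are therefore description and no support. Cluster 13, a small mature SP-like cluster below that minimum, had 41.4, 40.7 and 36.2 CPM. In the quiescent clusters the p53 AD/- level was 31.5, 55.9, 32.4 and 15.3 CPM in clusters 0, 1, 2 and 3, against 9.23, 8.14, 8.85 and 8.71 in p53+/-. These values were above p53+/- in each of the 4, and lowest in cluster 3, in which the intervals of the libraries met.

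Hspa8, the HSP70 gene made at all times, stood at 420, 786 and 504 CPM in quiescent DP-like cells of p53+/-, p53 AD/- and p53-/- (5436, 5622 and 5564 UMIs). The p53 AD/- level was 1.87 times that of p53+/- (log2 ratio 0.90, 0.85 to 0.96) and 1.56 times that of p53-/- (0.64, 0.59 to 0.69). In DN-like cells the levels were 1046, 2509 and 1147 CPM, in cycling-like cells 932, 2121 and 1043, in selected DP and early SP-like cells 662, 1322 and 803, and in mature SP-like cells 830, 1709 and 954. Again p53 AD/- was the highest at every stage, and p53-/- lay slightly above p53+/- at each. The ratio of p53 AD/- to p53+/- was largest in DN-like cells (1.26, 1.16 to 1.36) and cycling-like cells (1.19, 1.16 to 1.22), and smallest in quiescent DP-like cells. In DN-like cells of p53 AD/- 1 of 53 cells held 14.0% of the Hspa8 UMIs, which the counting interval does not cover. The ratio of Hsph1 was instead largest in quiescent DP-like cells and smallest in cycling-like cells (0.74, 0.57 to 0.90). Over the 18 clusters with at least 100 Hspa8 UMIs, p53 AD/- was higher in 18 against each other library, by at least 1.5-fold in 17 against p53+/- and in 12 against p53-/-.

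**Figure D2:**
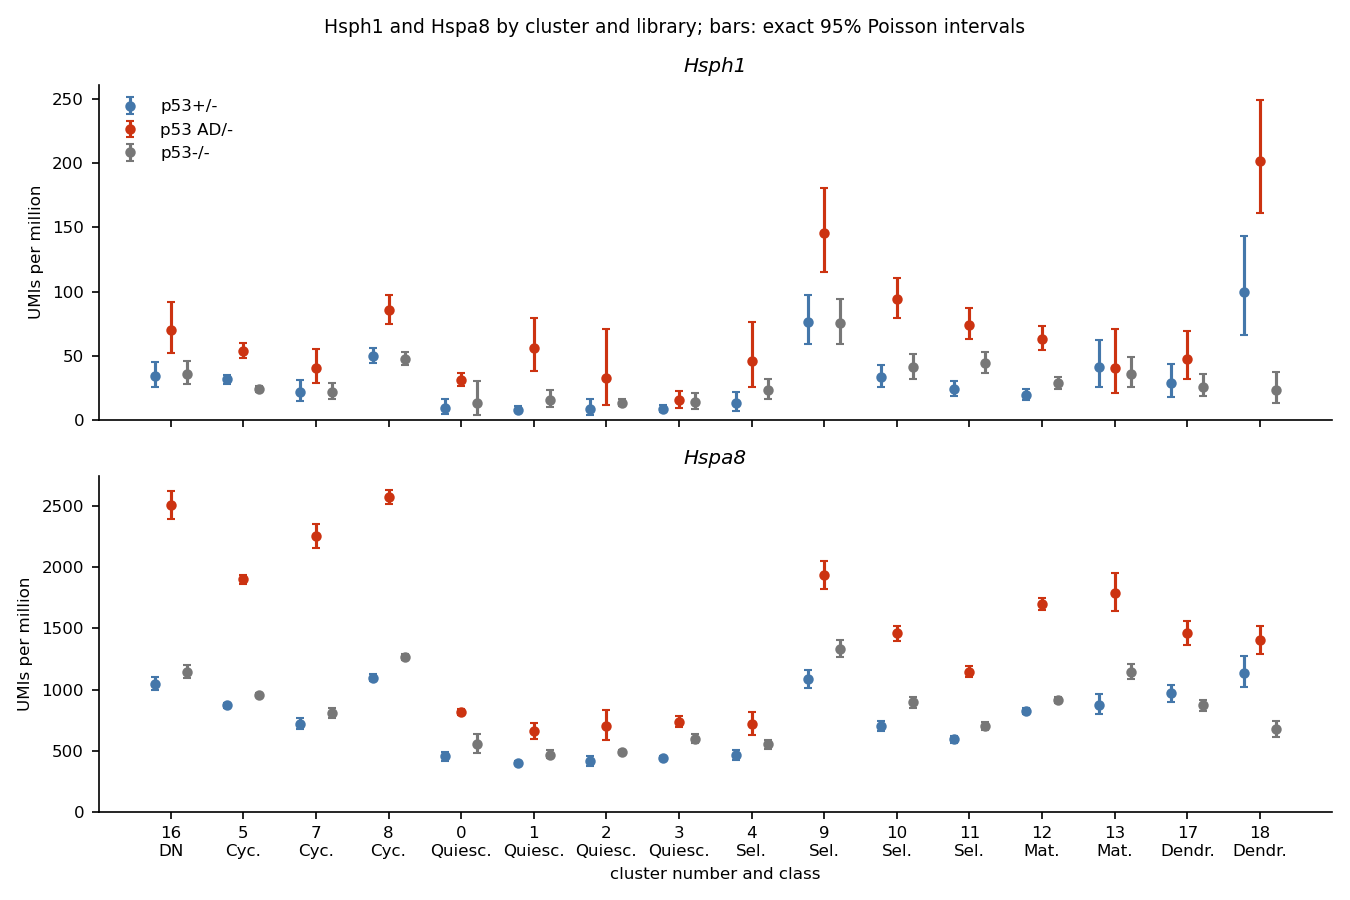
Level of Hsph1 (top) and Hspa8 (bottom), in CPM, in each named thymocyte and dendritic-like cluster (horizontal axis, cluster number and class) of the 3 libraries (colours), with exact 95% Poisson intervals. Among the thymocyte clusters Hsph1 peaks in cluster 9 (145 CPM in p53 AD/-), and Hspa8 is highest in p53 AD/- in every cluster drawn.

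At all 5 stages together, 16 of 2802 genes measured throughout (0.571%) were at least 1.5-fold higher in p53 AD/- than in both other libraries, and 2 of the 7 chaperone genes measured throughout were among them, Hsph1 and Hspa8. Ahsa1, which encodes an activator of the HSP90 ATPase, was another of the 16. Since Hsph1 was chosen for being high in this library, the count describes the group and is no support for it.

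**Figure D3:**
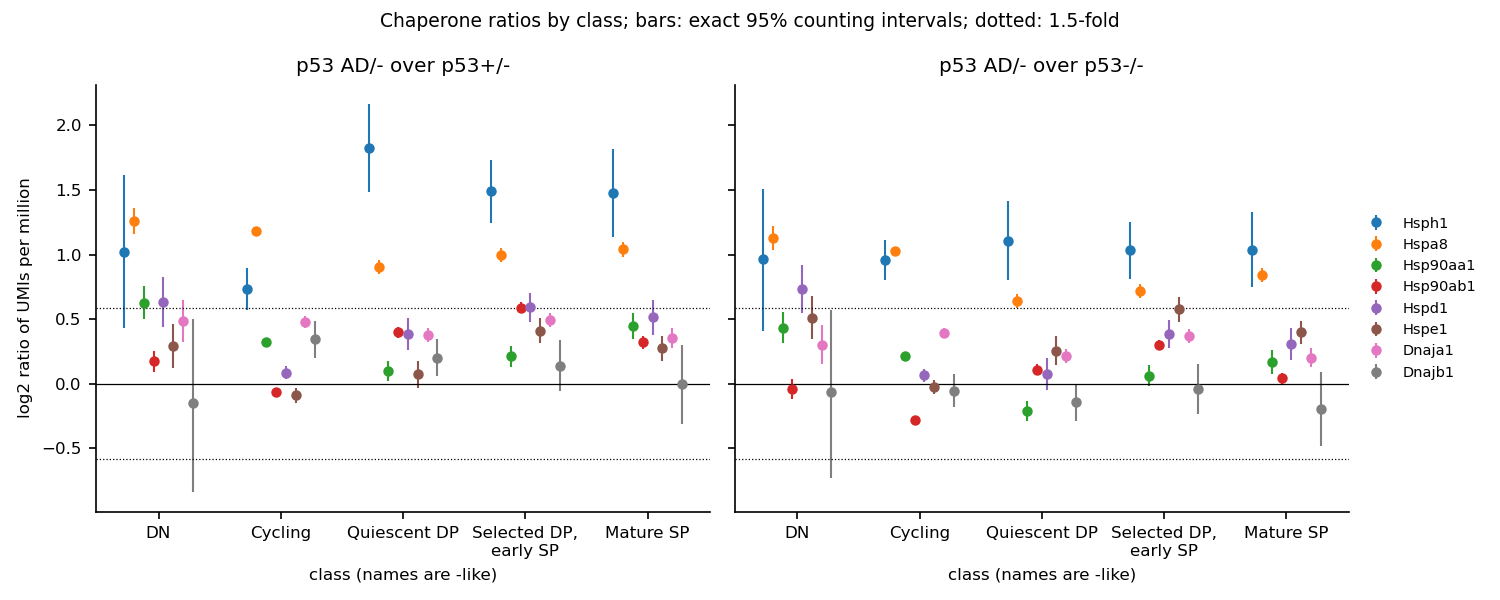
Log2 ratio of p53 AD/- to p53+/- (left) and to p53-/- (right) for each chaperone gene (colours) in 5 classes (horizontal axis), with exact 95% counting intervals; dotted lines mark 1.5-fold, and Dnajb1 in DN-like cells had under 100 UMIs over the left pair. Hsph1 and Hspa8 lie above the upper dotted line in all classes of both panels, and both panels share the p53 AD/- cells.

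The share of quiescent DP-like cells with at least 1 UMI was compared after thinning each cell to 1000 UMIs, which left out 52, 41 and 49 shallower cells. Hsph1 was then seen in 0.914% of p53+/- cells (interval 0.654 to 1.24), 2.95% of p53 AD/- cells (2.40 to 3.59) and 1.07% of p53-/- cells (0.786 to 1.42). The unthinned shares were 2.33%, 5.50% and 3.26%. Hspa8 was seen in 33.3%, 51.2% and 38.1% of thinned cells, and in 65.3%, 74.9% and 65.6% of unthinned cells. Both genes were thus found in more p53 AD/- cells although these were the shallowest. No thymus class is known to lack these genes, so no share of free RNA could be set beside these values.

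Few UMIs of the stress-induced pair Hspa1a and Hspa1b were counted in thymocytes. The part of reads that match both of these similar copies in the low counts was not tested. Quiescent DP-like cells of p53+/-, p53 AD/- and p53-/- held 1, 0 and 3 Hspa1a UMIs and 2, 3 and 3 Hspa1b UMIs, and the count of 0 allows up to 0.419 CPM (3 UMIs). Cycling-like cells held 4, 2 and 2 Hspa1a UMIs and 8, 5 and 7 Hspa1b UMIs. The pair therefore stayed at or near the floor in the library in which Hsph1 and Hspa8 were highest. In mature SP-like cells of p53+/- 11 Hspa1a UMIs were counted, all in 1 cell.

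Most UMIs of Hspa1a and Hspa1b in p53 AD/- and p53-/- came from dendritic-like cells, antigen-presenting cells led by Cd74 and H2-Aa, of which the libraries held 90, 98 and 208, whereas in p53+/- they held 1 of 20 Hspa1a UMIs and 9 of 29 Hspa1b UMIs. The make-up of this class differed between libraries: its 8 granulocyte markers summed to 6919.6, 2698 and 37780.5 CPM in p53+/-, p53 AD/- and p53-/-, beside 18899.6, 25131 and 18424 CPM for its 10 dendritic cell markers, and S100a9 was among the leading genes of cluster 18. The part of this difference in the values below was not tested. Dendritic-like cells had 1, 35 and 32 Hspa1a UMIs and 9, 39 and 20 Hspa1b UMIs in p53+/-, p53 AD/- and p53-/-. In p53 AD/- 26 and 29 of them came from 1 cell with 97428 UMIs, without which the level fell from 34.8 to 9.90 CPM for Hspa1a and from 38.8 to 11 CPM for Hspa1b. In p53-/- 16 of the 32 Hspa1a UMIs came from 1 cell. Hsph1 had 47.3, 112 and 25.2 CPM in the same class, and 54 of its 113 UMIs in p53 AD/- came from 1 cell. Stromal or endothelial-like cells of p53 AD/- held 12 Hspa1a UMIs over their 9 cells, against 0 over 13 cells of p53+/- and 0 over 17 cells of p53-/-, where a count of 0 allows 18.5 and 25.0 CPM. Levels in these small classes thus rest on few cells. In p53-/- both genes were over 20 times higher in dendritic-like cluster 18 than in quiescent DP-like cells, and the part of free RNA in the thymocyte counts was not tested. The copies cannot be told apart with confidence either: their longest coding transcripts were 95.8% identical over 2668 aligned bases, and 247 of the 250 bases before their starts were the same.

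The J-domain genes differed from each other. Dnaja1 stood at 502, 653 and 563 CPM in quiescent DP-like cells of p53+/-, p53 AD/- and p53-/-, and its p53 AD/- level had a log2 ratio of 0.38 to p53+/- (0.32 to 0.43) and of 0.21 to p53-/- (0.16 to 0.27). It varied little between DN-like (524, 733 and 594 CPM), cycling-like (541, 754 and 574) and mature SP-like cells (552, 706 and 615), and was highest in selected DP and early SP-like cells (772, 1088 and 844). The p53 AD/- library was the highest at each stage, by less than 1.5-fold.

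Dnajb1, which stimulates HSP70 on unfolded clients, had 81.5, 93.8 and 104 CPM in quiescent DP-like cells, its highest level of any stage. Its level was 43.6, 39.2 and 40.9 CPM in DN-like cells, 54.4, 69.0 and 71.6 in cycling-like cells, 72.2, 79.6 and 82.0 in selected DP and early SP-like cells, and 44.6, 44.4 and 50.8 in mature SP-like cells. It was not highest in p53 AD/- at any stage, and its quiescent level lay between the others, with a ratio of 0.20 (0.06 to 0.34) to p53+/- and -0.14 (-0.28 to -0.01) to p53-/-.

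The HSP90 genes were lowest in quiescent DP-like cells and highest in dividing or DN-like cells. Hsp90aa1 had 271, 290 and 335 CPM in quiescent DP-like cells of p53+/-, p53 AD/- and p53-/-, and 1024, 1281 and 1101 in cycling-like cells, a step of 3.78-, 4.42- and 3.29-fold. In DN-like cells it had 790, 1220 and 903 CPM, in selected DP and early SP-like cells 404, 468 and 448, and in mature SP-like cells 326, 444 and 394. Its p53 AD/- level was the highest outside quiescent DP-like cells, where p53-/- was higher (ratio of p53 AD/- to p53-/- -0.21, -0.29 to -0.13).

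Hsp90ab1 had 770, 1015 and 941 CPM in quiescent DP-like cells of p53+/-, p53 AD/- and p53-/-. Its level was 2415, 2724 and 2803 in DN-like cells, 2334, 2231 and 2706 in cycling-like cells, 1329, 1996 and 1619 in selected DP and early SP-like cells, and 1496, 1868 and 1814 in mature SP-like cells. The library that was highest changed with the stage: p53 AD/- led in quiescent, selected and mature cells, and p53-/- led in DN-like and cycling-like cells. Against p53-/- the p53 AD/- ratio was 0.30 (0.26 to 0.34) in selected DP and early SP-like cells and -0.28 (-0.30 to -0.26) in cycling-like cells. The step from quiescent to cycling-like cells was accordingly smaller in p53 AD/- (2.20-fold) than in p53+/- (3.03-fold) and p53-/- (2.88-fold).

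The mitochondrial chaperonin genes, which share the window shown above, did not follow each other in all comparisons. Hspd1 had 98.0, 128 and 121 CPM in quiescent DP-like cells of p53+/-, p53 AD/- and p53-/-, and Hspe1 had 148, 155 and 130. Both were higher in cycling-like cells, Hspd1 with 425, 451 and 431 CPM and Hspe1 with 427, 401 and 409 CPM. In DN-like cells Hspd1 had 348, 540 and 325 CPM and Hspe1 had 515, 632 and 443. The lower library differed between the genes: in quiescent DP-like cells p53-/- was above p53+/- for Hspd1 (0.31, 0.19 to 0.42) and below it for Hspe1 (-0.18, -0.28 to -0.08). In selected DP and early SP-like cells Hspd1 had 186, 281 and 215 CPM and Hspe1 had 264, 351 and 236, and in mature SP-like cells Hspd1 had 183, 261 and 211 CPM and Hspe1 had 395, 478 and 363. Both genes were highest in p53 AD/- at these later stages, Hspd1 by up to 1.51-fold over p53+/-.

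**Figure D4:**
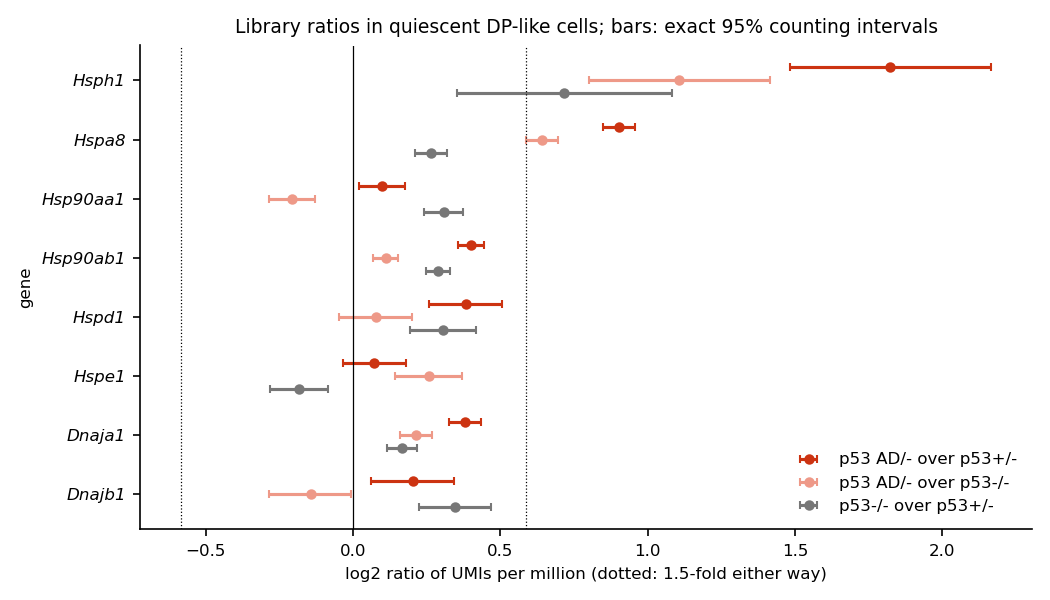
Log2 ratio of CPM between libraries in quiescent DP-like cells (horizontal axis) for each chaperone gene (vertical axis), for the 3 pairs of libraries (colours); bars are exact 95% counting intervals and dotted lines mark 1.5-fold. Hsph1 (1.82 and 1.11) and Hspa8 (0.90 and 0.64) lie past 1.5-fold for p53 AD/- over both other libraries, and the other 6 genes lie within it for every pair.

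Counted over the 8 measured genes of the quiescent DP-like class, 2 (Hsph1 and Hspa8) were at least 1.5-fold higher in p53 AD/- than in p53+/-, where 15.6% of all genes differed that far either way, and the median log2 ratio was 0.38 beside -0.02 over all genes. Against p53-/- the same 2 genes were past 1.5-fold beside 23.2% of genes, with a median of 0.16 beside -0.11. For p53-/- over p53+/- 1 gene, Hsph1, was past it beside 5.35% of genes, with medians of 0.30 and 0.09. Set against these shares counted either way, the members were not far from the background in the comparisons with p53 AD/-. Both members past 1.5-fold there were higher ones. On the higher side 478 of 8943 genes were past it against p53+/- and 473 of 8822 against p53-/-. Since Hsph1 was chosen for being high, these shares are description. Hsph1 and Hspa8 were past 1.5-fold at each stage. For Hspa8 against p53-/- the quiescent ratio was within 1.5-fold in 3 of 16 settings: 0.44 with cells matched on their Malat1 share, 0.51 without cluster 0 and 0.56 without cluster 2.

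At the other stages the count for p53 AD/- over p53+/- was 4 of 7 in DN-like cells (Hsph1, Hspa8, Hsp90aa1 and Hspd1) beside 30.8% of genes, 2 of 8 in cycling-like cells beside 17.0%, 4 of 8 in selected DP and early SP-like cells (Hsph1, Hspa8, Hsp90ab1 and Hspd1) beside 14.8%, and 2 of 8 in mature SP-like cells beside 17.2%. For p53 AD/- over p53-/- it was 3 of 8 (Hsph1, Hspa8 and Hspd1) beside 30.4% of genes in DN-like cells, 2 of 8 beside 23.5% in cycling-like cells, 2 of 8 beside 19.7% in selected DP and early SP-like cells and 2 of 8 beside 22.2% in mature SP-like cells. Where 2 genes are counted, they were Hsph1 and Hspa8. In DN-like cells of p53 AD/- 1 of 53 cells held 21.2% of the Hsph1 UMIs. For Hspa8, Hsp90aa1 and Hspd1 the top cell held 14.0%, 17.4% and 15.3%. The part of such cells in the DN-like counts was not tested. None of the 8 was at least 1.5-fold lower in p53 AD/- at any stage, whereas genes past 1.5-fold in quiescent DP-like cells were mostly lower ones (34.2% of them were higher than in p53+/- and 23.1% higher than in p53-/-). With other scaling factors that split moved to 40.4% and 45.3% for p53+/-, and to 44.8% and 48.1% for p53-/- (TMM and median-of-ratios factors), and the median over all genes for p53 AD/- over p53-/- moved from -0.11 to 0.02 and 0.03.

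Genes around the chaperones were taken from 11 lists, here for p53 AD/- over p53+/- in quiescent DP-like cells. The HSP90 co-chaperones held the most higher genes past 1.5-fold of these lists. Against p53+/- 6 of 15 were higher (among them Stip1, Ahsa1, Fkbp4 and St13), with a list median of 0.33. Against p53-/- 3 of 15 were higher (Stip1 and Ahsa1 among them, median 0.36). Of all genes 15.6% and 23.2% were past 1.5-fold either way in these comparisons. On the higher side 478 of 8943 and 473 of 8822 genes were past it. Fkbp4, an immunophilin of steroid receptor complexes, went from 49.3 to 97.2 CPM (0.98, 0.82 to 1.14), with 66.8 in p53-/-, and St13, which links HSP70 to HSP90, from 167 to 310 CPM (0.89, 0.80 to 0.98), with 209 in p53-/-. Stip1, the scaffold that holds HSP70 and HSP90 together, had a ratio of 0.84, and Ahsa1 also 0.84.

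All 8 subunits of TRiC, the cytosolic chaperonin that folds actin and tubulin, were above their p53+/- level, 3 of them past 1.5-fold (median 0.51). Cct3 led them (101 to 168 CPM, 0.74, 0.62 to 0.85). All 8 were above p53-/-, 1 of them past 1.5-fold (median 0.41). All 26 proteasome subunits were above p53+/- too, 4 past 1.5-fold (median 0.35). Above p53-/- were 24 of 26, with 0 past 1.5-fold (median 0.27). These medians stand beside -0.02 and -0.11 over all genes, of which 48.1% and 41.2% were above p53+/- and p53-/-. Past 1.5-fold either way were 15.6% and 23.2% of all genes, and the proteasome count against p53+/-, all of it higher genes, was near that share. On the higher side alone 478 of 8943 genes were past 1.5-fold against p53+/-. In cycling-like cells the list medians against p53+/- were smaller, 0.24 for TRiC and 0.21 for the proteasome, with none of their subunits past 1.5-fold.

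Other chaperone lists stayed nearer to the rest. Against p53+/- none of 11 mitochondrial chaperones and proteases was past 1.5-fold (median 0.20). Of 16 chaperones of the endoplasmic reticulum none was (0.11), and of 5 BAG proteins and exchange factors none (0.15). Of 13 other J-domain genes 1 was lower, Dnajb14 (0.19). Against p53-/- 2 of the 16 endoplasmic reticulum genes were lower, Hspa5 and Dnajb9 (median -0.07). There 1 of the 13 J-domain genes, Dnajc5, was lower (-0.06) and 1 of the 11 mitochondrial genes, Trap1, higher (0.13). Of all genes 23.2% were past 1.5-fold either way in that comparison. Heat shock factor genes differed little, Hsf1 with 20.1, 20.3 and 24.7 CPM in p53+/-, p53 AD/- and p53-/- and Hsf2 with 16.7, 18.2 and 23.2. Other HSP70 genes had a median of -0.01 over 4 measured, with Hspa4, which like Hsph1 belongs to the HSP110 group, at 98.7, 108 and 107 CPM. Of the small heat shock proteins 1 reached the minimum, Hspb11 (ratio 0.02).

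Immediate early genes, which dissociation of tissue can induce together with heat shock genes, did not move as 1 group. Of 12 measured, 4 were at least 1.5-fold lower in p53 AD/- than in p53+/- (Jun, Dusp1, Zfp36 and Nr4a1; list median -0.25) and 6 lower than in p53-/- (median -0.76), where 15.6% and 23.2% of all genes were past 1.5-fold either way. In each pair 3 of the 12 were above the other library and none was at least 1.5-fold higher. Jun, a subunit of AP-1, had 50.8, 24.5 and 56.9 CPM in p53+/-, p53 AD/- and p53-/-, Dusp1, a phosphatase of MAP kinases, had 32.4, 18.3 and 54.3, and Nr4a1 had 18.1, 5.17 and 74.6. These 3 genes, named for their large ratios, were lowest in p53 AD/- in quiescent DP-like cells. The summed level of the 16 genes of the list was not lowest there, at 1759, 1957 and 2005 CPM in p53+/-, p53 AD/- and p53-/-. Nor was it in cycling-like cells (802, 908 and 1107 CPM) and mature SP-like cells (1657, 1710 and 2413). The sum was lowest in p53 AD/- in DN-like cells (1753, 1432 and 2193 CPM) and in selected DP and early SP-like cells (1905, 1750 and 2609). The part of the immediate early genes in the chaperone levels was not tested.

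**Figure D5:**
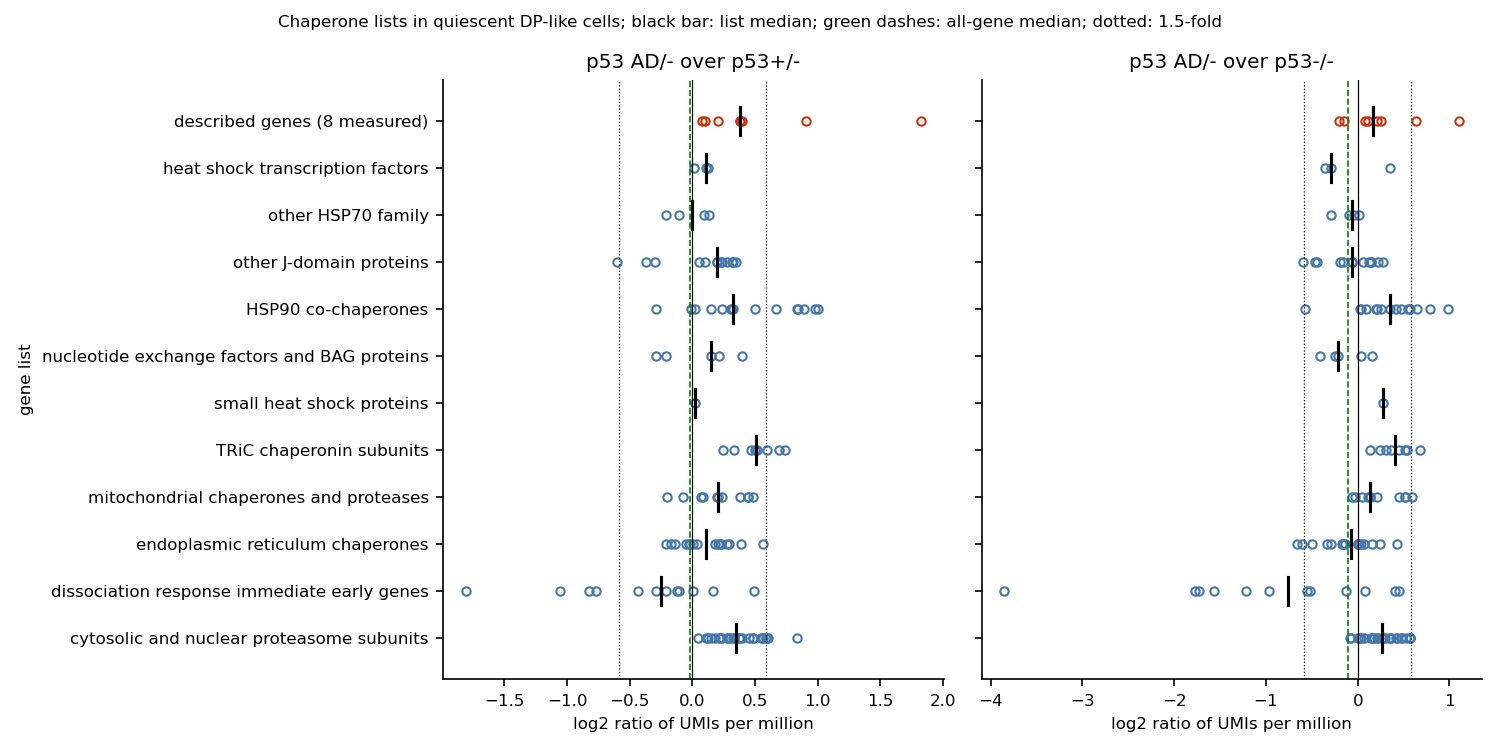
Log2 ratio in quiescent DP-like cells (horizontal axis) of each gene (circle) of the chaperones described and of 11 further lists (rows), for p53 AD/- over p53+/- (left) and over p53-/- (right); black bars are list medians, the green dashed line is the median of all genes and dotted lines mark 1.5-fold. The TRiC median is 0.51 and 0.41, and that of the immediate early genes -0.25 and -0.76.

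The genes whose level was most like that of Hsph1 over 15 points (5 stages in 3 libraries, which share cells, library and depth) were ranked among 5379 genes by Pearson's r of log2 CPM, as a description. They were Farsb (0.95), Mrps18b (0.94), Eif4a1 (0.93), Pole4 (0.92) and Nol12 (0.91). For Hspa8 they were Pdia6 (0.98), Mrps15 (0.95), Ripk3 (0.94), Adh5 (0.94) and Cct5 (0.94), the last a TRiC subunit. Hsph1 and Hspa8 had an r of 0.87 with each other, rank 19 from the side of Hsph1 and 48 from that of Hspa8. Dnajb1 was the least like them of the measured chaperones, with an r of -0.34 to Hsph1 and -0.56 to Hspa8.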

How the data were processed

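Single-cell RNA of 3 thymus libraries was analysed, grouped by the genotype labels. The values are raw UMI counts per gene and barcode, deposited by the authors on GRCm38 per the submitters' processing notes, and made with Cell Ranger 4.0.0 as the file headers state. The sources used here do not give the annotation, the chemistry or the use of strand. The members, gene lists and markers were chosen with earlier results of these data known.

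Cells were clustered in scanpy 1.11.5 (2000 variable genes without the chaperone lists, 30 components, 15 neighbours, Leiden resolution 1). To be named after a class, a cluster had to have at least 3 markers of that class detected in at least 5% of its cells. The detected markers of the class also had to be no fewer than its undetected ones. The class needed an own marker among the top 10 genes of the cluster, and more of them than any other class. Scrublet called 8 barcodes in all, which is too few to have worked, and doublets were kept. Counts were summed per class and library and divided by all UMIs of the class. CPM have exact Poisson intervals, shares Clopper-Pearson intervals and ratios conditional binomial intervals (scipy 1.17.1). The floor was 3 UMIs. Named were all members, up to 3 genes per list with the largest ratio of p53 AD/- to p53+/-, and the 5 genes most like Hsph1 and Hspa8 with at least 20 CPM on average. Of the genes this rule selects, 1 is not reported here. Genes named in counts past 1.5-fold, and the markers of clusters, were named after their values were seen. Promoters are RefSeq's on GRCm38.p6, and positions GENCODE M21's, in which 32235 genes were found. Procedures were checked on simulated data. Alternatives were other filters, clusterings, scalings (TMM from edgeR 4.0.16), cells matched on Malat1 and, chosen after seeing the data, each quiescent cluster and 1 dendritic-like cell left out.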

Additional observations from a re-analysis of the deposited data

Results flagged for a closer look

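Hsp90ab1 was noted because its difference between p53 AD/- and p53-/- had opposite directions at different stages: the log2 ratio was 0.30 (interval 0.26 to 0.34) in selected DP and early SP-like cells and -0.28 (-0.30 to -0.26) in cycling-like cells. With 1 library per genotype this difference between stages was not tested.

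Hspa8 was noted in barcodes that the cell filter left out, which enter no comparison above. In the 137 such barcodes of p53 AD/- it stood at 930 CPM (134 UMIs), against 370 CPM in 730 barcodes of p53+/- and 375 CPM in 346 barcodes of p53-/-. The log2 ratio to p53+/- was 1.33 (interval 1.03 to 1.62).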

How the results depend on the processing

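Chaperones past 1.5-fold were counted again for the 3 pairs of libraries in quiescent DP-like cells and for the other stages over quiescent DP-like cells. In 75 of 82 alternative values the count was equal to the main count or within a factor of 1.5 of it. With at least 2-fold in place of 1.5-fold the count in quiescent DP-like cells was 1 for p53 AD/- over p53+/- and 1 over p53-/- (Hsph1 alone, in place of 2). For p53-/- over p53+/- it was 0 in place of 1. For p53 AD/- over p53-/- the count was 1 with cells matched on their Malat1 share (2037 per library), 1 without cluster 0 and 1 without cluster 2, the log2 ratio of Hspa8 being 0.44, 0.51 and 0.56. With all filtered cells summed the count for p53-/- over p53+/- was 0, with Hsph1 at 0.15. The cause of these moves was not tested. Over 16 settings Hsph1 ranged from 1.20 to 2.23 for p53 AD/- over p53+/-, from 0.93 to 1.55 over p53-/- and from 0.15 to 0.80 for p53-/- over p53+/-, and Hspa8 from 0.75 to 1.09 and from 0.44 to 0.83 in the pairs with p53 AD/-. Both kept their direction in all of these. Members within 1.5-fold turned their sign in some settings: for p53 AD/- over p53+/- Hspe1 was -0.08 without cluster 0 and -0.05 without cluster 1 and Dnajb1 was -0.17 without cluster 0, and for p53 AD/- over p53-/- Hsp90aa1 was 0.05 and Hsp90ab1 -0.16 with all filtered cells and Hspd1 was -0.14 without cluster 0. No paired analysis was possible because each genotype has 1 library. Depth limits Hspa1a and Hspa1b most, and at their counts of a few UMIs no difference between thymocytes of the libraries was detectable.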

Other observations

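In the cells of 1 library, Hspd1, Hspe1 and Hsp90ab1 varied together more in cycling-like cells than in selected DP and early SP-like cells, the 2 classes in which this was computed. Within the 1064, 764 and 1700 cycling-like cells of p53+/-, p53 AD/- and p53-/-, Pearson's r of log-scaled UMIs between Hspd1 and Hspe1 was 0.54, 0.55 and 0.55, between Hsp90ab1 and Hspe1 0.61, 0.55 and 0.58, and between Hsp90ab1 and Hspd1 0.53, 0.56 and 0.59. Hsph1 and Hspa8 reached 0.23, 0.17 and 0.18 there. In selected DP and early SP-like cells Hspd1 and Hspe1 reached 0.16, 0.23 and 0.15. These cells share a library and differ in depth and in phase of the cell cycle, so the values describe them only. The 2 classes differed in depth too. Median UMIs per cell were 12910.5, 10501.5 and 11050 in cycling-like cells and 3522, 2812 and 3064 in selected DP and early SP-like cells. The part of depth in the difference between the classes was not tested.

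Cluster 19, an unnamed group of 29, 41 and 50 cells led by Top2a, Vim and Ms4a4b, had 24.4, 85.4 and 27.1 CPM of Hsph1 and 1118, 2173 and 1186 CPM of Hspa8. The p53 AD/- library was thus the highest for both genes in these cells too.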
